A study of Mus musculus with 8 samples.

Results

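Imprinted genes outside the Dlk1-Dio3 domain were examined in kidneys of mouse embryos that had lost Grb2 in the ureteric bud. The set was a list of 41 genes known to be expressed mainly from the maternal allele (20 genes) or the paternal allele (21 genes), at 17 loci on 9 chromosomes. Of these, 37 were measured by a probe set named for a single gene, among 22180 genes on the array, and a gene with several probe sets was read from the brightest, by its mean over the 8 arrays. They comprised 18 maternally and 19 paternally expressed genes. H19 and Snrpn had only probe sets shared with other genes and were given no values, and Commd1 and Zrsr1 were not analysed here.

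The groups were 4 embryos labelled Grb2 UB-cKO, a knockout confined to the ureteric bud (UB), and 4 wild-type control embryos, all from 1 litter at E14.5 (E, embryonic day). Each array held RNA of both kidneys of an embryo, so p-values measure the spread between littermates. The sources used here do not name the Cre line or the targeted allele. The comparison asks how loss of this adaptor protein in the epithelium changes the transcriptome of the whole kidney.

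An imprinted gene keeps a methylation mark from the egg or the sperm at a control region, and this mark sets which parental copy is transcribed. Many imprinted genes act on fetal growth: IGF2 is a paternally expressed growth factor, while its clearance receptor IGF2R and the cell cycle inhibitor CDKN1C are maternally expressed. Imprinted genes lie in clusters, often with a long non-coding RNA such as Airn or Kcnq1ot1 that silences its neighbours on the same chromosome. The arrays measured RNA from both alleles together and cannot tell them apart.

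Values are log2 probe-set values, and a difference is Grb2 UB-cKO minus control on that scale, from limma with Benjamini-Hochberg adjustment over all 22180 genes and a threshold of 0.05. Grb2 had a difference of -0.45 (SE 0.07, adjusted p = 0.0017), and the sources used here do not place its probe set relative to the deletion. Markers of kidney were present in both groups, with list means of 9.29 to 9.71 in Grb2 UB-cKO embryos and 10.2 to 10.4 in controls. The groups also differed in the mean of 3 Y-linked genes, which was 9.94 to 10.1 in Grb2 UB-cKO embryos and 9.94 in control replicate 3, but 4.09 to 4.24 in the other 3 controls. Xist was high in those 3 controls (12.2 to 12.8) and low elsewhere (4.95 to 6.03), so genotype and sex were partly confounded, and control replicate 3 was the only control of the same sex as the Grb2 UB-cKO embryos. Adding the Y-linked mean as a covariate reduced the genes called from 6227 to 1246. Since only control replicate 3 matched the Grb2 UB-cKO embryos in this mean, the covariate fit rests mainly on that control. In the covariate fit Grb2 itself differed by -0.40 and did not pass (adjusted p = 0.100).

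Of the 37 measured imprinted genes, 16 rose, 4 fell and 17 did not pass the test in Grb2 UB-cKO kidneys. This was 54.1% called, against 28.1% of all genes. The share called higher was 43.2%, against 13.7% of all genes, and the share called lower was 10.8%, against 14.3%. The median difference was 0.22, against 0.0058 over all genes. The groups did not overlap in 22 of the genes (59.5%, against 31.2% of all genes), with Grb2 UB-cKO higher in 17 (15.2% of all genes) and lower in 5 (16% of all genes). None changed as much as 2-fold. With the Y-linked covariate the median was 0.23, but 2 genes passed, which is 5.41% against 5.62% of all genes. Both were higher, where 2.85% of all genes were called higher and 2.76% lower, and of the imprinted genes 0 were lower (2 at an unadjusted p under 0.05 in limma). In a whole organ, fewer cells of a type and less RNA per cell cannot be told apart.

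**Figure D1:**
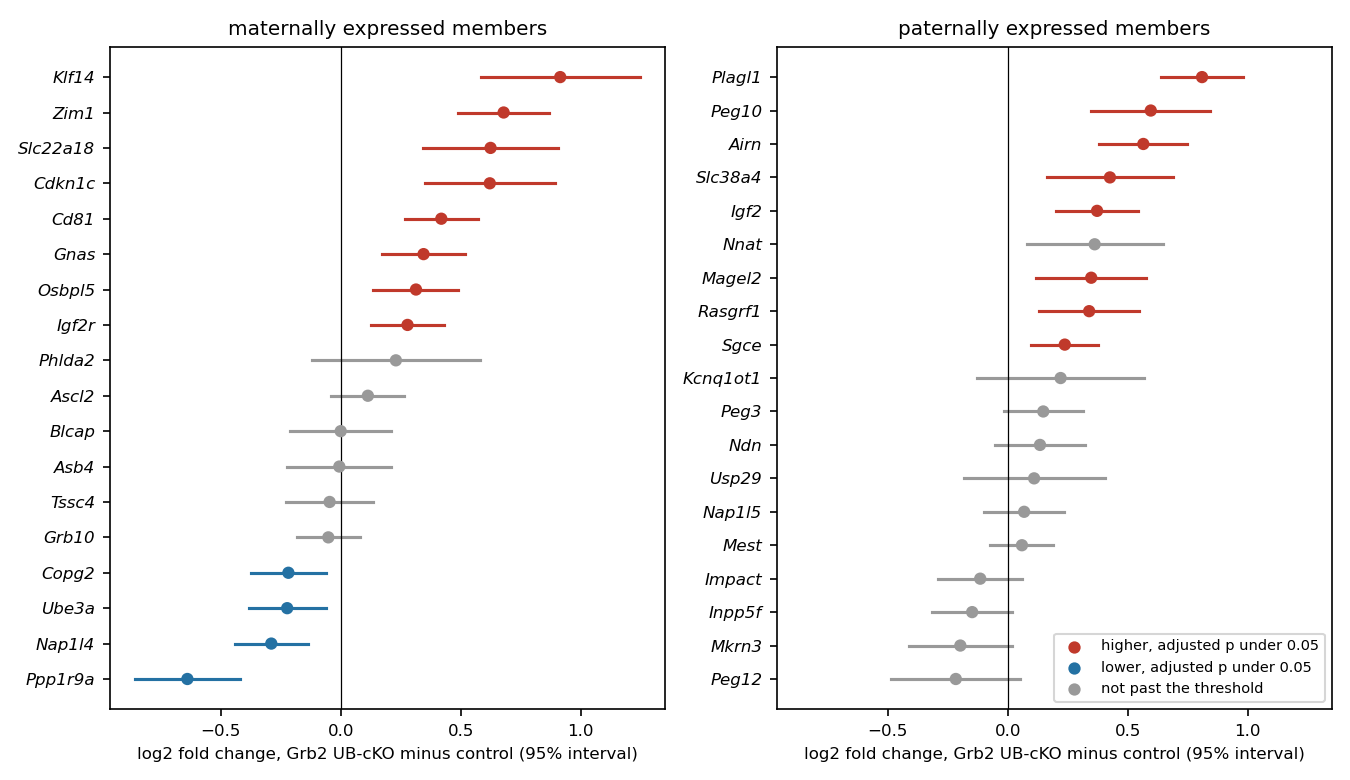
Log2 fold change (x axis, Grb2 UB-cKO minus control, point) with its 95% interval (bar) for the 18 maternally and 19 paternally expressed genes, ordered by size. Red and blue mark genes past an adjusted p of 0.05, and the 4 that fell are in the maternal panel (under array median centring the paternal Inpp5f was called lower too).

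Maternally expressed genes moved in both directions: 8 rose, 4 fell and 6 did not pass, with a median of 0.17. Of the paternally expressed genes, 8 rose, 0 fell and 11 did not pass, with a median of 0.22. Called higher were 44.4% of the maternally and 42.1% of the paternally expressed genes, against 13.7% of all genes. Called lower were 22.2% of the maternally expressed genes, against 14.3% of all genes. In limma no paternally expressed gene fell at an unadjusted p under 0.05 either, nor in the fit with a trended and robust spread (0 genes). With each array centred on its median, however, 4 paternally expressed genes were called higher and 1 lower, Inpp5f at -0.22 (adjusted p = 0.0418). The difference between the 2 parental classes was not tested. Of the 8 maternally expressed genes whose allele bias is known across many tissues, 5 rose and 0 fell, also 0 at an unadjusted p and in the trended and robust fit, and their median was 0.45. Of the 10 whose bias is limited to certain tissues or transcripts, 3 rose and 4 fell, and their median was -0.02.

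Among transcription factors, Klf14, a Krüppel-like factor gene expressed from the maternal allele, had the largest difference. It stood at 8.76, 8.63, 8.81 and 9.23 in the Grb2 UB-cKO embryos and at 7.62, 7.91, 8.12 and 8.12 in controls. The groups did not overlap, and control replicate 1 was the lowest embryo. The difference was 0.91 (SE 0.15, 95% interval 0.58 to 1.25, adjusted p = 0.00151), or 1.88-fold. With the Y-linked covariate it was 0.73, with an adjusted p of 0.113.

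Plagl1, a paternally expressed zinc finger factor known for restraining proliferation, was 12.22, 12.20, 12.21 and 12.47 in Grb2 UB-cKO embryos. Controls were at 11.50, 11.44, 11.49 and 11.44. The controls lay close together, and all of the Grb2 UB-cKO embryos lay well above them, with replicate 4 highest. The difference was 0.81 (SE 0.08, 95% interval 0.64 to 0.98, adjusted p = 0.000123), or 1.75-fold. A dimmer second Plagl1 probe set differed by 0.20 and did not pass (adjusted p = 0.331 over all probe sets). Zim1, a maternally expressed zinc finger gene beside Peg3, was 11.29, 11.38, 11.24 and 11.47 in Grb2 UB-cKO embryos and 10.81, 10.73, 10.64 and 10.50 in controls. Every Grb2 UB-cKO embryo exceeded every control. The difference was 0.68 (SE 0.09, 95% interval 0.49 to 0.87, adjusted p = 0.000431), or 1.6-fold. These were the 2 genes that passed with the Y-linked covariate too, Plagl1 at 0.78 (adjusted p = 0.0169) and Zim1 at 0.71 (adjusted p = 0.0301). That fit rests mainly on control replicate 3, and against this control alone the differences were 0.79 for Plagl1 and 0.71 for Zim1.

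Because Plagl1 and Zim1 kept their calls, the 250 bases before a RefSeq start of each are shown (GRCm38.p6, 5′ to 3′ on the gene's strand). Capitals mark GCGGCA, the reverse complement of TGCCGC, the motif that the imprint-keeping protein ZFP57 binds when methylated. The Plagl1 window lies at chr10:13090582-13090831 on the plus strand, and the Zim1 window at chr7:6696433-6696682 on the minus strand.
Plagl1: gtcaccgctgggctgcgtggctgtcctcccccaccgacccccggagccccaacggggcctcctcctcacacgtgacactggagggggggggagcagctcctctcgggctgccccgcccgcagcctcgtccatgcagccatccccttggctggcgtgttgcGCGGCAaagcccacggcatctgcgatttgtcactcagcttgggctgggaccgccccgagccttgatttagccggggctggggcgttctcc
Zim1: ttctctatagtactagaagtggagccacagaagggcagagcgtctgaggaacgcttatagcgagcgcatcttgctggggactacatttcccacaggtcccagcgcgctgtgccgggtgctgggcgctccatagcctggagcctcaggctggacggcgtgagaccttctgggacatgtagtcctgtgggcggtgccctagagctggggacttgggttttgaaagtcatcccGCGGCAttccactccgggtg
Each window holds 1 match, and 19 and 14 CpG dinucleotides. Searching both strands for TGCCGC, 8.68% of all 32851 RefSeq windows of this length held a match, with a median of 6 CpGs. The 31 measured imprinted genes with a window had 46 windows, of which 7 (15.2%) held it, with a median of 12 CpGs. Those 7 windows belonged to 6 genes, of which 3 rose, 1 fell and 2 did not pass. Among all 31 with a window, 12 rose, 3 fell and 16 did not pass. No methylation or binding was measured here.

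Among genes that regulate growth, Igf2 was 12.42, 12.30, 12.37 and 12.49 in Grb2 UB-cKO embryos and 12.02, 11.88, 12.07 and 12.13 in controls. The groups did not overlap, and control replicate 2 was the lowest embryo. The difference was 0.37 (SE 0.08, 95% interval 0.20 to 0.54, adjusted p = 0.00522), or 1.29-fold. Its receptor Igf2r, which carries IGF2 to the lysosome, was 11.30 ± 0.07 against 11.02 ± 0.07 (SD, n = 4 each). This difference was 0.28 (SE 0.07, adjusted p = 0.0129). Cdkn1c, which blocks cyclin-dependent kinases, was 11.08, 10.72, 11.24 and 11.34 against 10.48, 10.41, 10.53 and 10.47. Controls were tightly grouped, and Grb2 UB-cKO replicate 2 stood nearest to them. The difference was 0.62 (SE 0.12, adjusted p = 0.00404), or 1.54-fold.

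Grb10, an adaptor that binds the insulin and IGF receptors, was 12.22 ± 0.04 against 12.27 ± 0.02, with an interval of -0.18 to 0.08 around -0.05 (adjusted p = 0.58). Gnas, which encodes the stimulatory G protein alpha subunit among overlapping transcripts, was 9.39, 9.47, 9.45 and 9.64 against 9.02, 9.15, 9.22 and 9.19. All Grb2 UB-cKO embryos lay above all controls. The difference was 0.34 (SE 0.08, adjusted p = 0.00849). Rasgrf1, a guanine nucleotide exchange factor for RAS, was 5.78, 5.74, 5.99 and 5.67 against 5.28, 5.58, 5.53 and 5.43. The groups did not overlap, but the values lay near the 25th percentile of gene means (5.69). The difference was 0.34 (SE 0.09, adjusted p = 0.0222), and the call was lost without control replicate 1 or Grb2 UB-cKO replicate 3 (adjusted p up to 0.0606). Phlda2, which restrains placental growth, was 6.45 ± 0.23 against 6.22 ± 0.29 and did not pass (adjusted p = 0.33).

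**Figure D2:**
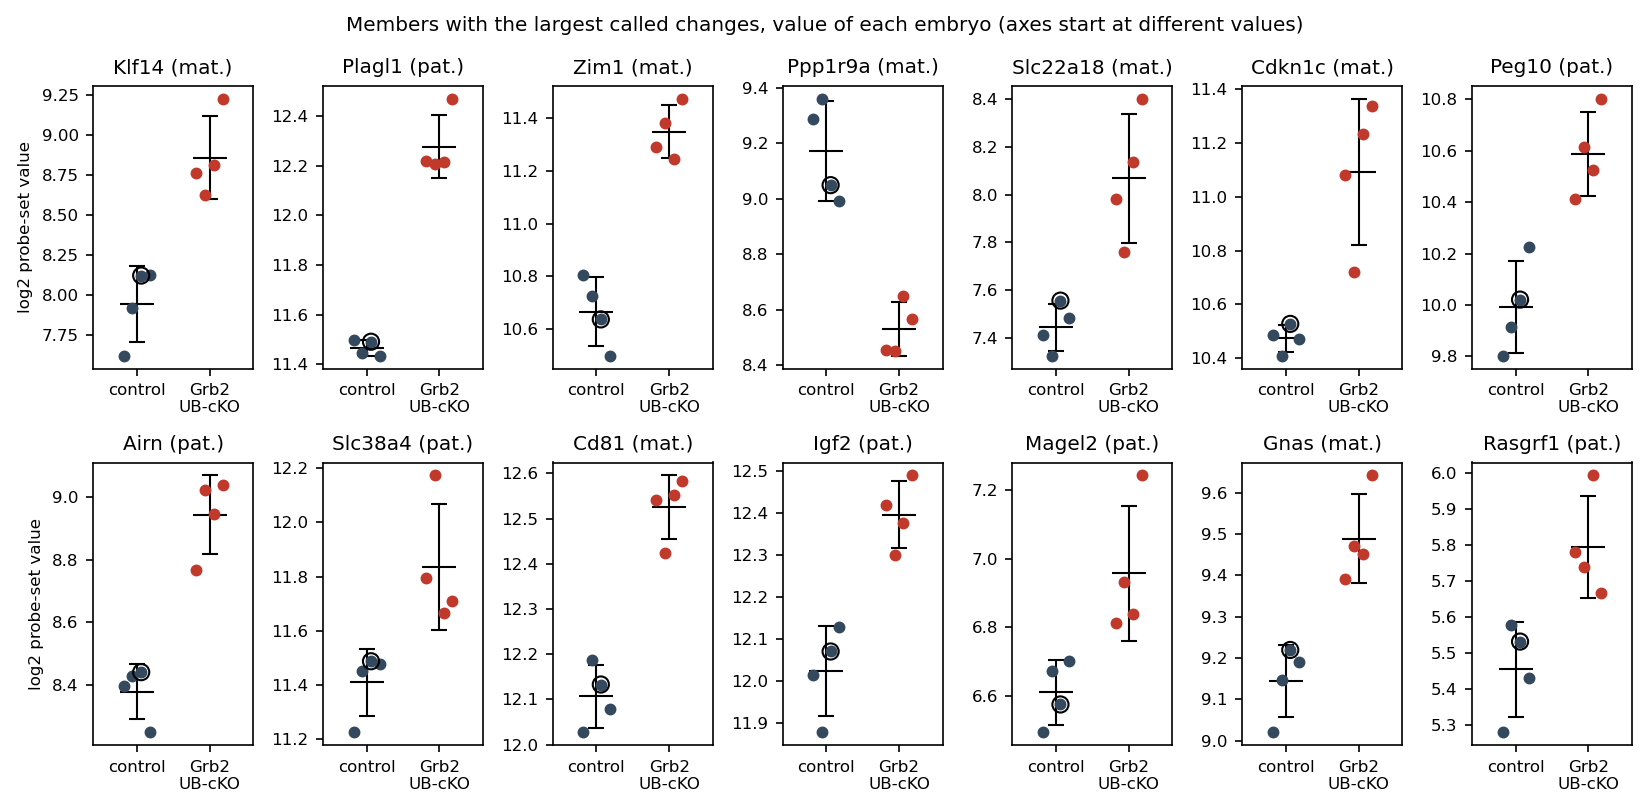
Log2 value of each embryo (y axis, starting at a different value in each panel) for the 14 genes with the largest called differences, in control and Grb2 UB-cKO groups (4 embryos each), with mean and SD. The ring marks control replicate 3, and in no panel do the groups overlap.

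Slc22a18, an organic cation transporter gene next to Cdkn1c, was 7.98, 7.76, 8.14 and 8.40 against 7.41, 7.33, 7.56 and 7.49. Its highest and lowest Grb2 UB-cKO embryos were replicates 4 and 2, the same as for Cdkn1c. The difference was 0.62 (SE 0.13, adjusted p = 0.00467). Cd81, a tetraspanin, was 12.54, 12.42, 12.55 and 12.58 against 12.03, 12.19, 12.13 and 12.08. Each group was compact and there was no overlap. The difference was 0.42 (SE 0.07, adjusted p = 0.00153), or 1.34-fold. Slc38a4, an amino acid transporter, was 11.79, 12.17, 11.67 and 11.71 against 11.23, 11.45, 11.49 and 11.48. Grb2 UB-cKO replicate 2 was highest and control replicate 1 lowest. The difference was 0.43 (SE 0.12, adjusted p = 0.0216), and without control replicate 1 it was no longer called (adjusted p = 0.0611). Osbpl5, a lipid transfer protein gene, was 8.77 ± 0.12 against 8.46 ± 0.07 (difference 0.31, SE 0.08, adjusted p = 0.0147). Sgce, which encodes epsilon-sarcoglycan, was 9.60 ± 0.06 against 9.36 ± 0.04 (difference 0.24, SE 0.06, adjusted p = 0.0179). Its call was lost without control replicate 3 or Grb2 UB-cKO replicate 3 (adjusted p up to 0.0543).

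Changes of both signs were seen within the Peg10 cluster, where Peg10 and Sgce rose and Ppp1r9a fell. Peg10, a gene derived from a retrotransposon, was 10.41, 10.61, 10.52 and 10.80 against 9.80, 9.92, 10.02 and 10.22. The highest control, replicate 4, came nearest to the Grb2 UB-cKO embryos without reaching them. The difference was 0.60 (SE 0.11, adjusted p = 0.00307), or 1.51-fold. Ppp1r9a, whose product neurabin joins protein phosphatase to actin, was 8.45, 8.45, 8.65 and 8.57 against 9.29, 9.36, 9.05 and 8.99. Control replicates 3 and 4 were closer to the Grb2 UB-cKO embryos than the other controls were. It fell by 0.64 (SE 0.10, adjusted p = 0.00109), or 1.56-fold. The fourth listed gene there, Asb4, which encodes an ankyrin repeat protein, was 9.64 ± 0.05 against 9.65 ± 0.20 (adjusted p = 0.972).

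The other 3 genes that fell have, like Ppp1r9a, an allele bias limited to certain tissues or transcripts. Nap1l4, a nucleosome assembly protein gene, was 11.27 ± 0.08 against 11.56 ± 0.04 and fell by 0.29 (SE 0.07, adjusted p = 0.0097). Ube3a, a ubiquitin ligase imprinted in neurons, was 9.50 ± 0.08 against 9.73 ± 0.08 and fell by 0.22 (SE 0.07, adjusted p = 0.0415). A dimmer second Ube3a probe set differed by -0.16 and did not pass (adjusted p = 0.447 over all probe sets). The Ube3a call was lost when its probe sets were averaged (adjusted p = 0.102). Copg2, a subunit of the coat of transport vesicles, was 10.47 ± 0.10 against 10.69 ± 0.02 and fell by 0.22 (SE 0.07, adjusted p = 0.0402). Ube3a lost its call without any of 6 embryos (all but control replicate 4 and Grb2 UB-cKO replicate 2, adjusted p up to 0.108). Copg2 lost it without any of 7 (all but Grb2 UB-cKO replicate 1, adjusted p up to 0.0983).

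At the Igf2r locus, the receptor and the long non-coding RNA that silences it on the paternal chromosome both rose. Airn was 8.77, 9.02, 8.95 and 9.04 in Grb2 UB-cKO embryos and 8.39, 8.43, 8.44 and 8.25 in controls. The groups were apart, with control replicate 4 lowest. The difference was 0.56 (SE 0.08, 95% interval 0.38 to 0.75, adjusted p = 0.000849), beside 0.28 for Igf2r. Airn overlaps Igf2r on the opposite strand, and the sources used here do not give the strand that the probes read, so RNA from the overlapping part cannot be told apart. The same holds for Kcnq1ot1 within Kcnq1 and for Nnat within Blcap. For this pair, whose transcripts come from opposite alleles, the windows of 250 bases before a RefSeq start are shown (GRCm38.p6). They lie at chr17:12769707-12769956 on the minus strand for Igf2r and chr17:12741061-12741310 on the plus strand for Airn.
Igf2r: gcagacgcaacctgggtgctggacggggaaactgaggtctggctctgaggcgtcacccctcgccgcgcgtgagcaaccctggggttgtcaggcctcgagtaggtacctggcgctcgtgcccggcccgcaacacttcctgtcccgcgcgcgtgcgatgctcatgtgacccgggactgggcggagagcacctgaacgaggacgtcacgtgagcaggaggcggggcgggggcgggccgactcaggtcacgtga
Airn: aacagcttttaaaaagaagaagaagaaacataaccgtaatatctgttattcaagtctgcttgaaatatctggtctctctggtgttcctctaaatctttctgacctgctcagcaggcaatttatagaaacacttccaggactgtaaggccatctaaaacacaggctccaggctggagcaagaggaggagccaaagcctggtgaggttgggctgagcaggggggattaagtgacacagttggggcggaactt
The Igf2r window holds 27 CpGs and the Airn window 2, and neither holds TGCCGC on either strand. Sequence at and after the starts was not examined, so these counts do not describe the whole promoters.

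Other opposite-allele neighbours did not move by equal amounts, though these differences between genes were not tested. Cdkn1c differed by 0.62, and Kcnq1ot1, the long non-coding RNA of its cluster, by 0.22 (SE 0.16, adjusted p = 0.352). Kcnq1ot1 spanned 9.39 to 10.27 in controls alone. Zim1 differed by 0.68, and the neighbouring Peg3, a paternally expressed zinc finger gene, by 0.15 (12.96 ± 0.11 against 12.82 ± 0.05, adjusted p = 0.176). Usp29, a ubiquitin protease gene in the same cluster, was 6.97 ± 0.24 against 6.86 ± 0.19 (adjusted p = 0.609).

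On distal chromosome 7, from Igf2 to Osbpl5, 22 genes were measured, of which 9 rose, 2 fell and 11 did not pass. Across the array, 13.7% of genes were called higher and 14.3% lower. The 10 listed genes of this stretch had 5 that rose, 1 that fell and a median of 0.27. The 12 others had 4 that rose, 1 that fell and a median of 0.17. These 12 are not a set of non-imprinted genes. Ins2, Th, Tspan32, Trpm5, Kcnq1, Tnfrsf22 and Tnfrsf23 are on the list of other imprinted genes, given below. The largest change was in Trpm5, a cation channel gene lying between Tssc4 and Kcnq1, at 1.48 (SE 0.15, adjusted p = 0.000199). Cars, the cysteinyl-tRNA synthetase gene beside Nap1l4, fell by 0.52 (adjusted p = 0.000735). Ascl2, a basic helix-loop-helix factor of the placenta, was 6.18 ± 0.07 against 6.06 ± 0.07 (adjusted p = 0.269), and Tssc4 was 7.78 ± 0.07 against 7.83 ± 0.13 (adjusted p = 0.734).

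**Figure D3:**
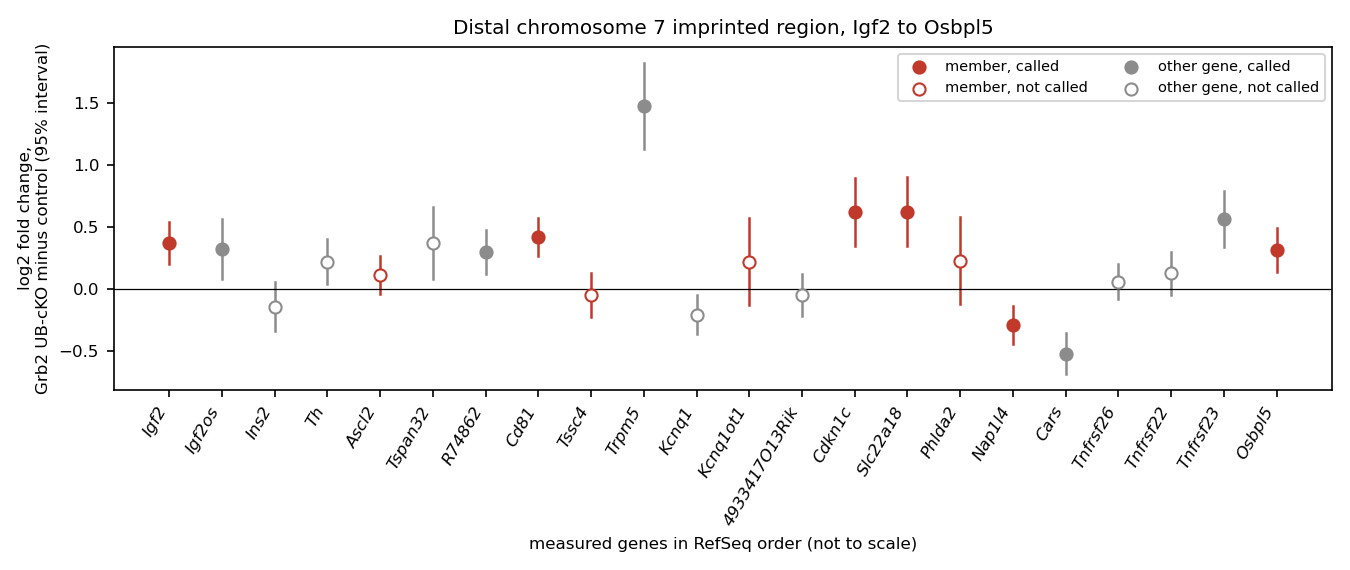
Log2 fold change (y axis, Grb2 UB-cKO minus control) with its 95% interval for the 22 measured genes of distal chromosome 7 in RefSeq order (x axis, not to scale). Filled points passed an adjusted p of 0.05, and 9 genes rose, 2 fell and 11 did not pass.

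The nearest measured coding genes that are on neither imprinted list were counted on each side of the 37 genes, and some of them, such as Cars, lie inside the clusters. Of these 34 neighbours, 4 rose, 10 fell and 20 did not pass, with a median of -0.04. Over all genes, 13.7% were called higher and 14.3% lower. Beside the 16 genes that rose lay 22 neighbours, of which 2 rose, 7 fell and 13 did not pass, with a median of -0.07.

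In the Snrpn cluster, Magel2, a MAGE family gene, was the gene that rose. It was 6.81, 6.93, 6.84 and 7.24 against 6.49, 6.67, 6.57 and 6.70. Grb2 UB-cKO replicate 4 stood above the rest. The difference was 0.35 (SE 0.10, adjusted p = 0.0297), and the call was lost without control replicate 1, 2 or 3 or Grb2 UB-cKO replicate 2 (adjusted p up to 0.0794). Its relative Ndn, encoding necdin, was 10.05 ± 0.03 against 9.91 ± 0.16 (adjusted p = 0.285). Mkrn3, a makorin gene, was 6.67 ± 0.16 against 6.87 ± 0.13 (adjusted p = 0.165), and Peg12 was 7.45 ± 0.26 against 7.66 ± 0.09 (adjusted p = 0.224). In this cluster Magel2 rose and Ube3a, given above, fell.

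Nnat, encoding the membrane protein neuronatin, came closest to the threshold without passing, at 11.24 ± 0.18 against 10.88 ± 0.23 (difference 0.36, adjusted p = 0.0591). It lies within Blcap, which was 7.65 ± 0.10 against 7.65 ± 0.16 (adjusted p = 0.996). Mest, a hydrolase-fold gene of mesoderm, was 12.84 ± 0.03 against 12.78 ± 0.03, with an interval of -0.07 to 0.19 (adjusted p = 0.528). The remaining genes were single loci. Inpp5f, an inositol phosphatase, was 8.01 ± 0.12 against 8.15 ± 0.03 without overlap (adjusted p = 0.175). Impact, a regulator of translation under stress, was 9.94 ± 0.12 against 10.06 ± 0.08 (adjusted p = 0.331), and Nap1l5 was 6.66 ± 0.12 against 6.60 ± 0.04 (adjusted p = 0.568). The 95% intervals of the 17 genes that did not pass reached from 0.131 to 0.349 to each side. These widths are not limits of detection: Nnat at 0.36 did not pass, while Copg2 at -0.22 did.

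Among the 16 genes that rose, Grb2 UB-cKO replicate 4 was farthest from the controls in 14 (87.5%), against 68.7% of the 3048 genes called higher on the whole array. Replicate 2 was nearest to the controls in 8 (50%), against 46.7%. Control replicate 3 was the highest control in 5 of the 16 (31.2%), against 29.3%. All 4 Grb2 UB-cKO embryos lay above control replicate 3, the control of the same sex, in 21 of the 37 genes (56.8%, against 28.3% of all genes) and below it in 8 (21.6%, against 29.2%). Against that control alone, the median difference was 0.24, beside 0.23 with the Y-linked covariate, a fit that rests mainly on the same control.

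**Figure D4:**
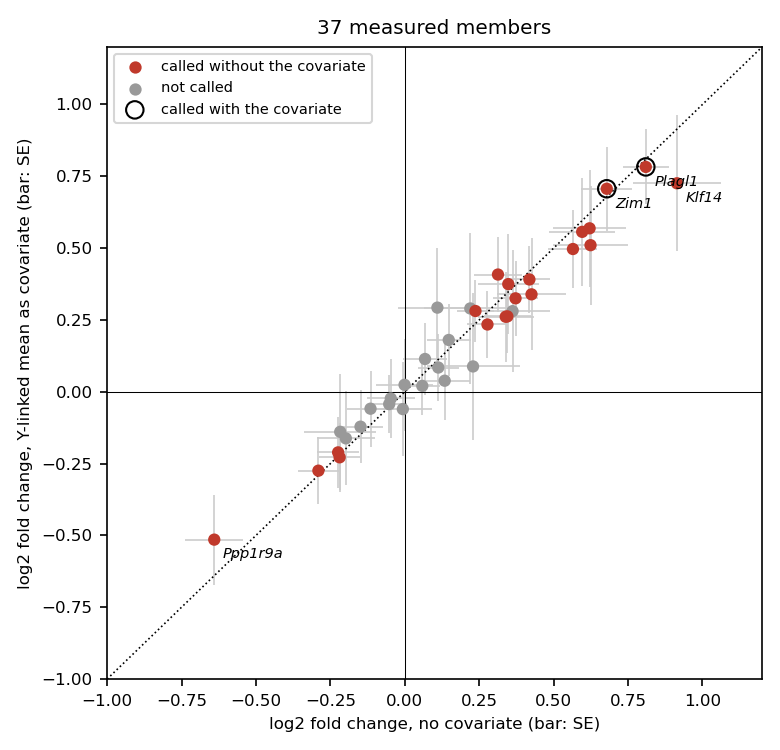
Log2 fold change of the 37 imprinted genes (Grb2 UB-cKO minus control) without a covariate (x axis) and with the Y-linked mean as covariate (y axis), with SE bars and a dotted line of equality. The points lie near the line while the vertical bars are longer, and the ringed Plagl1 and Zim1 are the 2 that passed with the covariate.

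With the Y-linked covariate all 20 called genes kept their sign, and 18 no longer passed, with adjusted p from 0.071 (Airn) to 0.392 (Rasgrf1). The median size of those 18 differences was 0.36 both ways, while the median SE went from 0.08 to 0.13. At an unadjusted p under 0.05 in limma, 11 genes were higher and 2 lower with the covariate. Centring each array on its median shifted all genes to a median of -0.06 and left 12 imprinted genes higher and 5 lower. Under that scaling 36.9% of all called genes were higher, against 48.9% without it. No called gene changed sign under it, although Magel2, Sgce, Rasgrf1 and Slc38a4 lost their calls.

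Cell type markers moved with the groups, where 13.7% of all genes were called higher and 14.3% lower. Markers of the ureteric bud fell in 14 of 16, with list means of 7.96 to 8.34 in Grb2 UB-cKO embryos against 9.39 to 9.54. Markers of nephron progenitors fell in 9 of 11, with means of 8.82 to 9.32 against 9.99 to 10.2. Markers of renal stroma rose in 13 of 15, with means of 10.9 to 11.1 against 10.2 to 10.5. Ureteric bud and nephron progenitor markers were thus lower in the same embryos in which the 16 imprinted genes were higher. Markers of stroma and of several other cell types, given next, were higher in these embryos. Podocyte markers rose in 6 of 7 (9.12 to 9.73 against 8.72 to 8.84), endothelial markers in 8 of 11 (9.90 to 10.2 against 9.57 to 9.68) and macrophage markers in 8 of 10 (8.42 to 8.77 against 7.44 to 7.67). Erythroid markers rose in 5 of 7 (7.30 to 7.95 against 6.47 to 6.96) and skeletal muscle markers in 5 of 9 (6.74 to 6.95 against 6.30 to 6.48). Markers of sympathetic neurons and adrenal medulla rose in 2 of 6, Stmn2 at 2.48 and Dbh at 0.58. Elavl4 fell, at -0.93 (adjusted p = 0.000223), and 3 did not pass. Their list means were 6.80 to 7.16 against 6.44 to 6.52, with the largest difference in Stmn2. Adrenal cortex markers rose in 0 of 9 in limma (0 also at an unadjusted p and in the trended and robust fit) and fell in 1, with means of 6.10 to 6.41 against 6.21 to 6.30. Gonad markers were called in 0 of 7 (1 at an unadjusted p under 0.05 and 1 in the trended and robust fit). The part of these shifts in cell type in the imprinted genes' differences was not tested.

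The IGF pathway was read from 15 further genes, of which 7 rose, 0 fell and 8 did not pass, with a median of 0.23. By limma 1 of them was lower at an unadjusted p under 0.05. In the trended and robust fit 1 was called lower, and 1 under array median centring. The shares called over all genes were 13.7% higher and 14.3% lower. Igf1, the second IGF ligand, was 10.13, 10.14, 10.31 and 10.71 against 9.11, 9.15, 9.29 and 9.03. All Grb2 UB-cKO embryos were higher, replicate 4 most. The difference was 1.18 (SE 0.13, adjusted p = 0.000221), or 2.27-fold. Among the binding proteins, which hold IGFs outside cells, Igfbp5 differed by 0.68 (SE 0.08, adjusted p = 0.000329) and Igfbp6 by 0.88 (adjusted p = 0.000572). Of the proteases that cut binding proteins, Pappa2 rose by 0.89 (adjusted p = 0.000405) and Pappa by 0.48 (adjusted p = 0.00327). Irs1, the docking protein behind the receptors, rose by 0.45 (adjusted p = 0.0106), while the signalling receptor gene Igf1r differed by 0.01 (adjusted p = 0.924). The Irs1 call was lost when its probe sets were averaged (adjusted p = 0.0668). Adding the Y-linked covariate left 3 of the 15 called.

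The proteins that write, read and keep imprints were taken from a list of 22 genes. Of these 3 rose, 12 fell and 7 did not pass, with a median of -0.26. Over all genes, 13.7% were called higher and 14.3% lower. Uhrf1, which brings the maintenance methyltransferase to newly replicated DNA, fell by 0.77 (SE 0.09, adjusted p = 0.000252). Hells, a chromatin remodeller needed for DNA methylation, fell by 1.08 (SE 0.14, adjusted p = 0.000506). Several of these genes are also known to follow cell division. Ctcf, the insulator protein of the Igf2 locus, fell by 0.50 (adjusted p = 0.000518), Smchd1 by 0.58 (adjusted p = 0.000787) and the Polycomb subunit gene Eed by 0.59 (adjusted p = 0.000991). Tet2, a dioxygenase that oxidises methylated cytosine, rose by 0.54 (adjusted p = 0.000502). Zfp57, whose product binds the motif marked above, rose by 0.39 (adjusted p = 0.00222), while Trim28 differed by -0.41 (adjusted p = 0.00112). With the Y-linked covariate Uhrf1 and Tet2 passed.

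Other imprinted genes, from a list of 34 of which 31 were measured, rose in 8, fell in 3 and did not pass in 20. Their median was 0.14. The 3 that fell were Calcr at -0.43 (adjusted p = 0.0245), Ddc at -0.37 (adjusted p = 0.0338) and Pon2 at -0.22 (adjusted p = 0.0303). For comparison, 28.1% of all genes were called, 13.7% higher and 14.3% lower. Besides Trpm5, Gatm, an enzyme of creatine synthesis, rose by 0.65 (SE 0.09, adjusted p = 0.000602). Kcnk9, a potassium channel gene, rose by 0.60 (adjusted p = 0.000967) and Tnfrsf23, a decoy receptor gene on distal chromosome 7, by 0.57 (adjusted p = 0.00241). Gab1, an adaptor that binds GRB2, rose by 0.33 (adjusted p = 0.00328), and Sfmbt2, a Polycomb-related gene, by 0.30 (adjusted p = 0.00519). Trpm5 and Gatm passed with the Y-linked covariate too. Of 4 measured microRNA genes within imprinted loci, limma called 0 (1 at an unadjusted p under 0.05 and 0 in the trended and robust fit).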

How the data were processed

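From the kidneys of each of 8 embryos, 200 ng of total RNA was amplified (Ambion WT kit) for 1-colour arrays with a biotin label, per the labels' protocols. The authors deposited log2 probe-set values for 41345 probe sets. They were made with the Transcriptome Analysis Console, per the submitters' processing notes; the sources used here do not give its version, background correction or normalization. That the scale is log2 follows from the range of the values, which ran from 1.25 to 14.08 with array medians of 6.61 to 6.72. No arrays were identical. Detection calls and batch records were not used here, and the number of arrays limits the precision.

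Probe sets with 1 gene symbol (23521) were kept, and 1814 with several and 16010 with none were not named. Of those kept, 23328 took the symbol of their Entrez identifier in the GRCm38.p6 RefSeq table, whether or not it differed. Each gene was read from its brightest probe set by the mean over all arrays, with no filter on low values. Groups were compared with lmFit and eBayes in limma 3.58.1 (R 4.3.3), with no covariate, over 22180 genes. The fit was tested on simulated data. Lists were described by counts and medians, with no list test.

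The imprinted genes, lists and alternatives were chosen with earlier results of these data known. Values of each embryo are given for the 14 called genes of largest difference whose groups do not overlap, group means for the others, and up to 6 genes of smallest p from each pathway list. Cars, Calcr, Ddc, Pon2, Zfp57 and Trim28, beside them, were named after their values were seen. Alternatives were other scalings, probe-set rules, spread models, thresholds, arrays left out, the Y-linked mean (Eif2s3y, Kdm5d, Uty) as covariate, and control replicate 3 as the only control. Promoter windows came from RefSeq (GRCm38.p6).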

Additional observations from a re-analysis of the deposited data

Results flagged for a closer look

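In 4 of 74 groups of 4 embryos, 1 embryo lay far from the other 3 by Dixon's test at the 95% level, which chance gives in about 1 in 20 groups. Plagl1 in Grb2 UB-cKO replicate 4 was at 12.47, above the others at 12.2 to 12.22. Slc38a4 in control replicate 1 was at 11.23, below the others at 11.45 to 11.49, and it is the control without which the Slc38a4 call is lost. Ascl2 in control replicate 2 was at 5.97, with the others at 6.09 to 6.11. Asb4 in Grb2 UB-cKO replicate 1 was at 9.56, with the others at 9.65 to 9.67.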

How the results depend on the processing

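With the Y-linked covariate, imprinted genes called fell from 20 to 2, with 2 higher and 0 lower, 1 maternally and 1 paternally expressed. All genes called fell from 6227 to 1246. That fit and the next rest mainly on control replicate 3, so they are not separate checks. With control replicate 3 as the only control, limma called 0 imprinted genes, 0 higher and 0 lower (10 higher and 1 lower at an unadjusted p under 0.05), and 285 of all genes; this fit assumes that the lone control varies like the Grb2 UB-cKO embryos. At an adjusted p of 0.01, 12 imprinted genes were called, 10 higher and 2 lower, with 4 paternally expressed, and 3809 of all genes. Genes called lower numbered 2 under quantile normalization and 2 with all probe sets fitted, and paternally expressed genes called numbered 5 under array median centring. Leaving out each embryo in turn gave 15 to 20 imprinted genes called, 13 to 17 higher, 2 to 3 lower, 10 to 11 maternally and 5 to 9 paternally expressed, and 4894 to 5955 of all genes. None of the 20 called imprinted genes changed sign under any of these alternatives. Of those that did not pass, Asb4 changed sign under quantile normalization (0.00494), array weights (0.0208) and without 1 embryo (-0.0744 to 0.0758 over all 8). Blcap changed sign under array weights (0.0239), the Y-linked covariate (0.0243), control replicate 3 alone (0.0189) and without 1 embryo (-0.0689 to 0.0634 over all 8), Mest under centring (-0.00861) and Tssc4 without 1 embryo (-0.0996 to 0.0050 over all 8). Nnat passed under quantile normalization (adjusted p = 0.0377), without dim genes (0.0386), with the trended and robust spread (0.03) and without control replicate 4 (0.0244), and Inpp5f passed, lower, under centring (0.0418). The causes were not tested. No paired analysis was possible because the replicate numbers follow only the order of the samples' records.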
